A study of Dicosmoecus gilvipes with 20 samples.

Results

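Thorax RNA from larvae of the stream caddisfly *Dicosmoecus gilvipes* was compared between 28.6°C, the warmest of 4 laboratory temperatures, and 15.5°C, the coolest. The comparison uses 10 of the 20 libraries of the series, 5 labelled 28.6°C and 5 labelled 15.5°C. Both groups were wild larvae in the fifth instar, taken from the same river and kept cool in the laboratory before the water was brought to the test temperature and held there for a day. The 5 libraries of a temperature were made from pooled RNA of the same larvae, so the spread between them is technical, and every test compares 2 pools of larvae rather than 2 sets of animals. Expression was measured per subcomponent, a set of contigs that the assembler built from 1 group of overlapping reads and that stands in for a gene. The members described are the 498 subcomponents with a protein annotation in the deposited table of differentially expressed transcripts, out of 79613 in the assembly, after those holding the study's 31 target transcripts or its 3 reference transcripts were left out. All 498 were abundant enough to be among the 15220 tested, and they carry 419 different protein names, each the best match in another species.

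Insects that meet damaging heat switch on heat shock genes, whose products are chaperones that hold unfolding proteins in solution, refold them or hand them to the proteasome. Small heat shock proteins act as holders, Hsp70 with its DnaJ partners folds, Hsp90 (called Hsp83 in *Drosophila*) finishes client proteins, and the ring-shaped T-complex folds actin and tubulin. Larval thorax holds muscle, cuticle-secreting epidermis, fat body and a stretch of gut, so that muscle genes, cuticle genes, storage proteins and digestive enzymes are all measured in the same libraries.

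The estimated counts summed to between 7082712 and 9462136 in the 28.6°C libraries and between 7383431 and 14075957 in the 15.5°C libraries, after 1 subcomponent of ribosomal-like contigs had been removed. That subcomponent had held between 4.91% and 15.1% of the counts at 28.6°C and between 0.513% and 2.45% at 15.5°C. Its part in the differences below was not tested, and a fit that kept it left every named member with the same direction and on the same side of the threshold. All 5 libraries of 28.6°C had short reads, as had 2 of 15.5°C, with 99 as the longest read position. In the other 3 of 15.5°C the longest position was 188, and the labels do not explain this split. Values are CPM, counts scaled to library size by the TMM method, and a log2 fold change is 28.6°C over 15.5°C. CPM is not divided by length, so levels are compared between temperatures and not between genes. A member is said to rise or fall when its adjusted p in edgeR's quasi-likelihood test was below 0.05, and to be called when its fold change was also at least 4.

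Over all 15220 subcomponents tested, 36.4% were higher and 35.6% lower at 28.6°C by the adjusted p, and 3.41% and 2.56% were called higher and lower. With scaling by library size only, 4404 were higher and 6611 lower by the adjusted p, against 5543 and 5412 with TMM. Of the 498 members, 194 rose, 289 fell and 15 did not pass the test. Of these, 89 were called higher and 118 called lower. The median log2 fold change was -0.86 over the members and 0.01 over all subcomponents tested. The libraries of the 2 temperatures did not overlap in 477 members (95.8%), against 56.9% of all subcomponents tested. In the same table, 486 subcomponents without a protein name were 47.7% higher and 48.1% lower by the adjusted p, with 112 (23.0%) called higher, 107 called lower and 93.4% not overlapping. The table that supplies the names was chosen by the authors for differential expression on these same libraries, so neither these counts nor those of any list below are independent evidence of a direction. The shares for all members, against which each list is to be read, were 39.0% higher and 58.0% lower, with 17.9% called higher and 23.7% called lower. Lists were filled by name and overlap, with 33 members counted in 2 lists each.

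**Figure D1:**
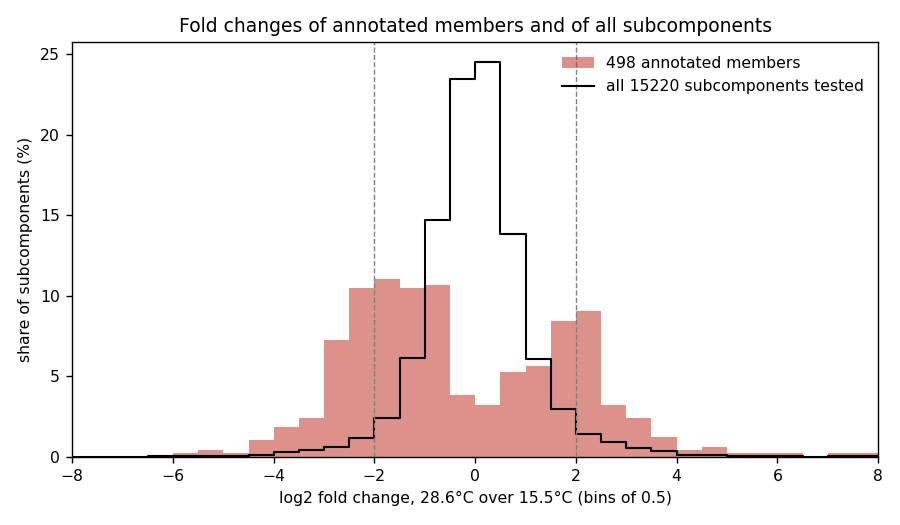
Share of subcomponents (%, vertical axis) per bin of log2 fold change at 28.6°C over 15.5°C (horizontal axis), for the 498 annotated members as bars and for all 15220 subcomponents tested as a line, with dashed lines at a fold change of 4. The members form 2 humps on either side of 0, with a median of -0.86, while all subcomponents together are centred near 0.

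The highest fold changes among the members belonged to small heat shock proteins. Subcomponent comp64489_c0, matching *Drosophila* Protein lethal(2)essential for life, a small heat shock protein of the alpha-crystallin family, had 9376, 8474, 8963, 9637 and 8976 CPM at 28.6°C, against 36.7, 37.2, 36.4, 36.7 and 43.4 CPM at 15.5°C. Every 28.6°C library was far above every 15.5°C library, although the counting program split reads between this member and other subcomponents in 12 of the 20 libraries, and the log2 fold change was 7.89 ± 0.079 (SE, adjusted p = 6.80e-35 from edgeR). A further subcomponent with the same match, comp64060_c3, had between 6738 and 7414 CPM at 28.6°C and between 40.6 and 54.0 CPM at 15.5°C, a log2 fold change of 7.22 ± 0.068 (SE). The next, comp54376_c0, had between 2951 and 3147 CPM at 28.6°C and between 42.5 and 50.6 CPM at 15.5°C, a log2 fold change of 6.05. The last of the 4 with this name, comp62474_c2, had a smaller fold change, 2.02, with a mean of 2292 ± 133 CPM at 28.6°C and 564 ± 26.5 CPM at 15.5°C (SD, n = 5 each). Summed over the 4, the level ran between 20684 and 22395 CPM at 28.6°C and between 666 and 728 CPM at 15.5°C. Matches to Heat shock protein 26 and to Heat shock protein beta-1, both small heat shock proteins, rose by log2 fold changes of 2.46 and 1.92.

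All 6 members of the Hsp70 family were called higher. Major heat shock 70 kDa protein Ab (comp65626_c0), the strictly inducible Hsp70 of *Drosophila*, had 6557, 6952, 6662, 7802 and 7305 CPM at 28.6°C, against 130.0, 129, 140.0, 131 and 137 CPM at 15.5°C. No library fell between the groups, and the log2 fold change was 5.72 ± 0.054 (SE, adjusted p = 2.40e-35 from edgeR). Heat shock 70 kDa protein cognate 4 (comp64785_c1), the form that cells use at all times to fold new proteins, had between 19818 and 21696 CPM at 28.6°C and between 2095 and 2284 CPM at 15.5°C. The groups did not overlap, and the log2 fold change was 3.24 ± 0.044 (SE). A set of 3 subcomponents of a single assembled component, comp56264, matched Heat shock 70 kDa protein cognate 2, a chicken Heat shock 70 kDa protein and Heat shock protein 68, with log2 fold changes of 3.88, 3.76 and 3.73. The counting program split no reads among the 3. Those of Heat shock protein 68 were split outside the 3 in 1 library. The set linked to it there by shared reads, directly or through others, held comp64785_c1. The Hsp110-type protein Heat shock 70 kDa protein 4 (comp59746_c0), which exchanges nucleotide on Hsp70, had a mean of 1302 ± 41.5 CPM at 28.6°C and 183 ± 4.68 CPM at 15.5°C (SD, n = 5 each).

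The partners of Hsp70 and Hsp90 rose with them. BAG domain-containing protein Samui (comp61114_c0), a silkworm protein whose domain binds Hsp70, had 1658, 1916, 1983, 2482 and 2528 CPM at 28.6°C, against 63.9, 64.3, 75.8, 74.2 and 61.5 CPM at 15.5°C. The warm libraries were scattered, yet all lay far above the cool ones, and the log2 fold change was 4.96 ± 0.10 (SE). Heat shock protein 83 (comp63082_c0), the insect Hsp90, had between 13327 and 15032 CPM at 28.6°C and between 919 and 1009 CPM at 15.5°C, a log2 fold change of 3.86 ± 0.044 (SE). Stress-induced-phosphoprotein 1, the adaptor that joins Hsp70 to Hsp90, rose by a log2 fold change of 3.25, and Hsc70-interacting protein 2 rose by 2.31. Of the DnaJ proteins, which deliver clients to Hsp70, DnaJ homolog subfamily A member 1 rose by 2.98 and DnaJ protein homolog 1 by 2.03.

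The chaperonins changed less. T-complex protein 1 subunit eta had 623, 642, 652, 861 and 872 CPM at 28.6°C, against 173, 167, 203, 198 and 168 CPM at 15.5°C, a log2 fold change of 2.01 ± 0.088 (SE). The other 5 subunits measured, zeta, alpha, beta, epsilon and gamma, had log2 fold changes between 0.68 and 1.24, and none of their libraries overlapped between the temperatures. The mitochondrial 60 kDa heat shock protein had a mean of 754 ± 28.5 CPM at 28.6°C and 298 ± 6.37 CPM at 15.5°C (SD, n = 5 each). In all, the chaperone list had 27 members, of which 26 rose and 1 fell, and 19 (70.4%) were called higher. The exception was Probable protein disulfide-isomerase A6, an enzyme of the endoplasmic reticulum, with a mean of 4.21 ± 1.43 CPM at 28.6°C and 8.98 ± 0.845 CPM at 15.5°C (SD, n = 5 each). A member that rose, Chaperone activity of bc1 complex-like, is counted for its name and is known as a kinase-like protein of coenzyme Q synthesis. The median log2 fold change of the list was 2.46.

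**Figure D2:**
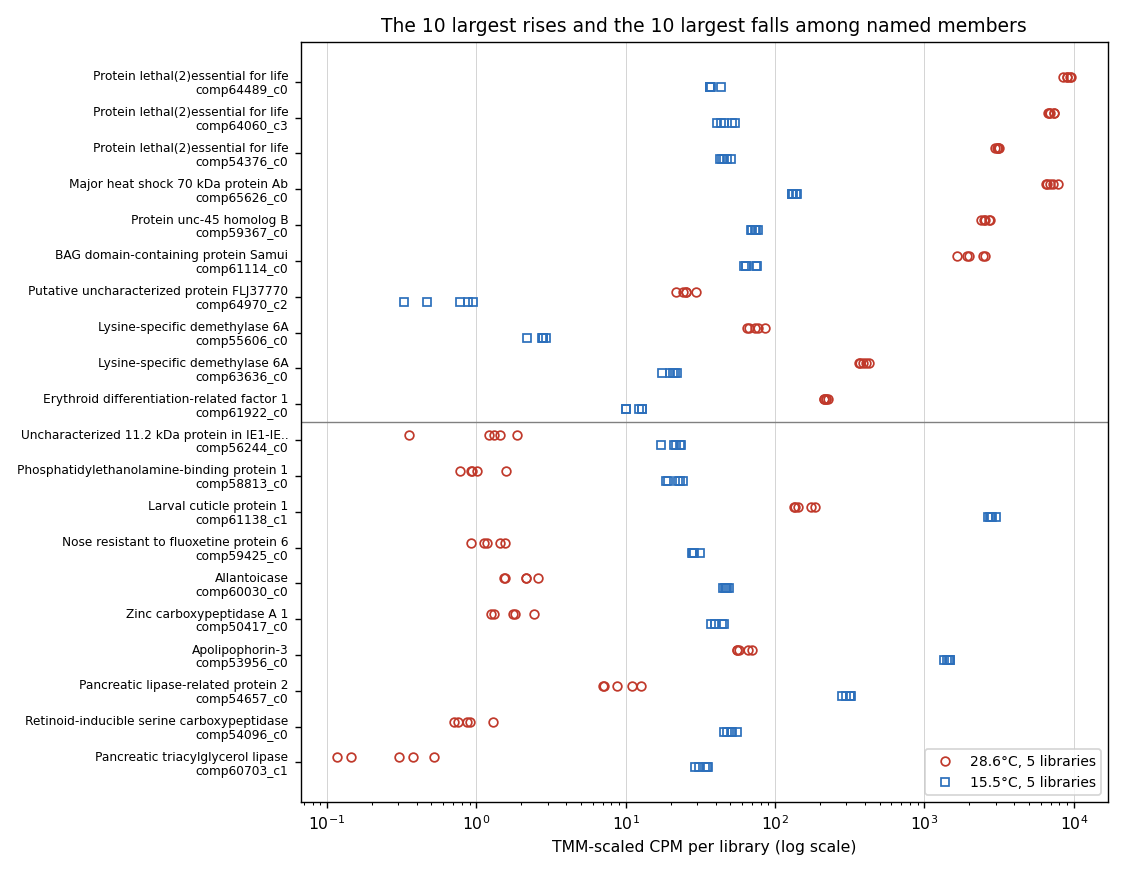
CPM in each of the 5 libraries at 28.6°C (circles) and the 5 at 15.5°C (squares), on a log axis, for the 10 highest and the 10 lowest log2 fold changes among called members whose libraries did not overlap and whose mean reached 10 CPM. In every member shown the 2 temperatures are separated by a gap wider than the spread of either, from comp64489_c0 (log2 fold change 7.89) to comp60703_c1 (-5.95).

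Outside the chaperone list, the highest fitted log2 fold change was that of Protein unc-45 homolog B (comp59367_c0), a co-chaperone of Hsp90 that folds the head of muscle myosin. It had 2495, 2539, 2387, 2727 and 2686 CPM at 28.6°C, against 76.5, 73.2, 70.2, 74.2 and 68.7 CPM at 15.5°C. The 2 groups lay far apart, with a log2 fold change of 5.14 ± 0.054 (SE, adjusted p = 2.67e-34 from edgeR). Cysteine and histidine-rich domain-containing protein (comp57128_c0), which in vertebrates binds Hsp90, rose by a log2 fold change of 3.39, with a mean of 255 ± 12.1 CPM at 28.6°C and 24.1 ± 1.17 CPM at 15.5°C (SD, n = 5 each). This gene was singled out after its values were seen.

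Genes named for ubiquitin, the proteasome or autophagy were also mostly higher at 28.6°C. Of 11 members in the list of ubiquitin, proteasome and autophagy, 9 rose and 2 fell, and 4 (36.4%) were called higher. Sequestosome-1 (comp62628_c0), the receptor that carries ubiquitin-tagged aggregates to autophagosomes, had 2373, 2356, 2253, 2475 and 2447 CPM at 28.6°C, against 395, 406, 384, 379 and 378 CPM at 15.5°C. Its log2 fold change was 2.61 ± 0.040 (SE), with libraries tightly grouped at both temperatures. Probable E3 ubiquitin-protein ligase HERC4, which attaches ubiquitin, (comp64546_c1) had a mean of 29.4 ± 2.97 CPM at 28.6°C and 5.65 ± 0.689 CPM at 15.5°C (SD, n = 5 each), and F-box only protein 28, a substrate receptor of a ubiquitin ligase, rose by a log2 fold change of 2.35. Enzymes that remove ubiquitin were found on both sides. Ubiquitin carboxyl-terminal hydrolase calypso, which acts on histone H2A in *Drosophila*, had the highest log2 fold change of the list, 3.03, and Ubiquitin carboxyl-terminal hydrolase 33 had 1.95, while the 2 members that fell were Ubiquitin carboxyl-terminal hydrolase 14 with -1.18 and Ubiquitin carboxyl-terminal hydrolase 47 with -1.14.

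Genes of transcription and chromatin were mostly higher at 28.6°C. In this list of 34 members, 25 rose and 9 fell, 13 (38.2%) were called higher and 2 called lower, and the median log2 fold change was 1.64. Both subcomponents matching Lysine-specific demethylase 6A, an enzyme that removes a repressive methyl mark from histone H3, were among the 10 highest log2 fold changes of the members. The first, comp55606_c0, had 65.1, 66.6, 76.9, 85.2 and 73.2 CPM at 28.6°C, against 2.92, 2.81, 2.80, 2.74 and 2.18 CPM at 15.5°C, a log2 fold change of 4.65 ± 0.098 (SE). The second, comp63636_c0, had between 362 and 427 CPM at 28.6°C and between 17.4 and 22.1 CPM at 15.5°C, a log2 fold change of 4.26 ± 0.062 (SE). Transcription elongation factor SPT4 rose by 2.83, and of 12 members named as zinc finger proteins 11 rose and 1 fell. The members that fell included RNA regulators. Serine/arginine-rich splicing factor 7 had 9.49, 9.72, 8.13, 10.7 and 10.7 CPM at 28.6°C, against 52.4, 46.8, 47.0, 46.2 and 49.2 CPM at 15.5°C. RNA-binding protein squid (comp60548_c0) had a mean of 395 ± 21.6 CPM at 28.6°C and 1469.7 ± 32.5 CPM at 15.5°C (SD, n = 5 each), although its annotated contigs hold only 18.1% of its counts. Probable nuclear hormone receptor HR38, a *Drosophila* receptor of the NR4A type that also stands in the hormone list, had the lowest log2 fold change of the list, -2.89.

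Most genes of DNA replication and repair were higher too. In the list of apoptosis, cell cycle and DNA repair, 12 of 17 members rose, 4 fell and 1 did not pass. Probable DNA replication complex GINS protein PSF2, part of the helicase that opens the replication fork, had a mean of 10.3 ± 1.71 CPM at 28.6°C and 0.467 ± 0.255 CPM at 15.5°C (SD, n = 5 each), a log2 fold change of 3.81. DNA repair protein RAD50, part of the complex that holds broken DNA ends, had 85.5, 80.2, 74.4, 77.3 and 77.0 CPM at 28.6°C, against 17.4, 15.03, 15.6, 14.1 and 18.2 CPM at 15.5°C. Replication factor C subunit 1, of the complex that loads the sliding clamp, had a log2 fold change of 2.07 ± 0.090 (SE), and 2 subcomponents matching DNA polymerase alpha subunit B had 1.42 and 1.36. DNA replication licensing factor Mcm2 had a mean of 7.41 CPM at 28.6°C and 6.86 CPM at 15.5°C, and did not pass (adjusted p = 0.475 from edgeR). Exonuclease 1, which trims DNA ends during repair, fell, with a log2 fold change of -1.81. The members tied to apoptosis went both ways. Caspase-1 (comp63303_c0), a moth enzyme that executes apoptosis, had 4.46, 4.33, 4.67, 4.39 and 4.69 CPM at 28.6°C, against 30.1, 30.9, 31.4, 30.5 and 30.7 CPM at 15.5°C, a log2 fold change of -2.70 ± 0.078 (SE). Apoptosis 1 inhibitor, the *Drosophila* protein that blocks caspases, matched 2 members, comp63503_c0 with a log2 fold change of -1.64 and comp62431_c2 with -0.72, where the annotated contigs of comp62431_c2 hold 3.84% of its counts. Baculoviral IAP repeat-containing protein 5, also a protein of the dividing spindle, rose by 1.29.

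Translation and ribosome genes were few, 10 members, of which 2 rose and 8 fell. Of the 10, 1 (10%) was called higher and 2 (20%) called lower, against 17.9% and 23.7% of all members. rRNA 2'-O-methyltransferase fibrillarin (comp58229_c1), a core protein of the nucleolus, had 51.3, 47.2, 41.6, 53.0 and 47.2 CPM at 28.6°C, against 139, 127, 127, 130.4 and 136 CPM at 15.5°C. The groups did not overlap, and the log2 fold change was -1.46 ± 0.061 (SE). Nucleolar and coiled-body phosphoprotein 1, Nucleolar protein 14 homolog and Nucleolar protein 6 had log2 fold changes of -1.80, -1.04 and -0.77. Putative ribosomal RNA methyltransferase 1 (comp59346_c0) rose by 2.48, and U3 small nucleolar ribonucleoprotein protein IMP3 by 1.01. The 2 lowest of the list, and the only 2 called lower, were Elongation factor 1-alpha and Elongation factor 2. Their best matches, however, are proteins of a ciliate and of an apicomplexan. They had means of 1.28 and 1.24 CPM at 28.6°C and 11.2 and 7.46 CPM at 15.5°C. A tubulin alpha chain with a ciliate match behaved alike, with a log2 fold change of -2.95, whereas Cathepsin L 2 (comp54296_c0), the other member matched to such an organism, rose by 1.56. Whether these 4 sequences belong to the caddisfly was not tested.

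A group of 7 members belongs to the entry gate of the secretory pathway, where the Sec61 channel takes new proteins into the endoplasmic reticulum, and all 7 fell, with a median log2 fold change of -1.76. This group was put together after the values had been seen. Translocating chain-associated membrane protein 1-like 1 (comp52083_c0) had 38.2, 43.0, 35.0, 44.05 and 46.7 CPM at 28.6°C, against 241, 259.6, 254, 249 and 254 CPM at 15.5°C. Translocon-associated protein subunit alpha (comp61075_c2) had between 39.2 and 47.6 CPM at 28.6°C and between 218 and 246 CPM at 15.5°C. Both were called lower, with log2 fold changes of -2.60 ± 0.060 and -2.43 ± 0.057 (SE). Sec61 subunits beta, gamma and alpha had log2 fold changes of -2.39, -1.76 and -1.16, where the annotated contigs of the last 2 hold 33.9% and 25.5% of the counts of their subcomponents.

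**Figure D3:**
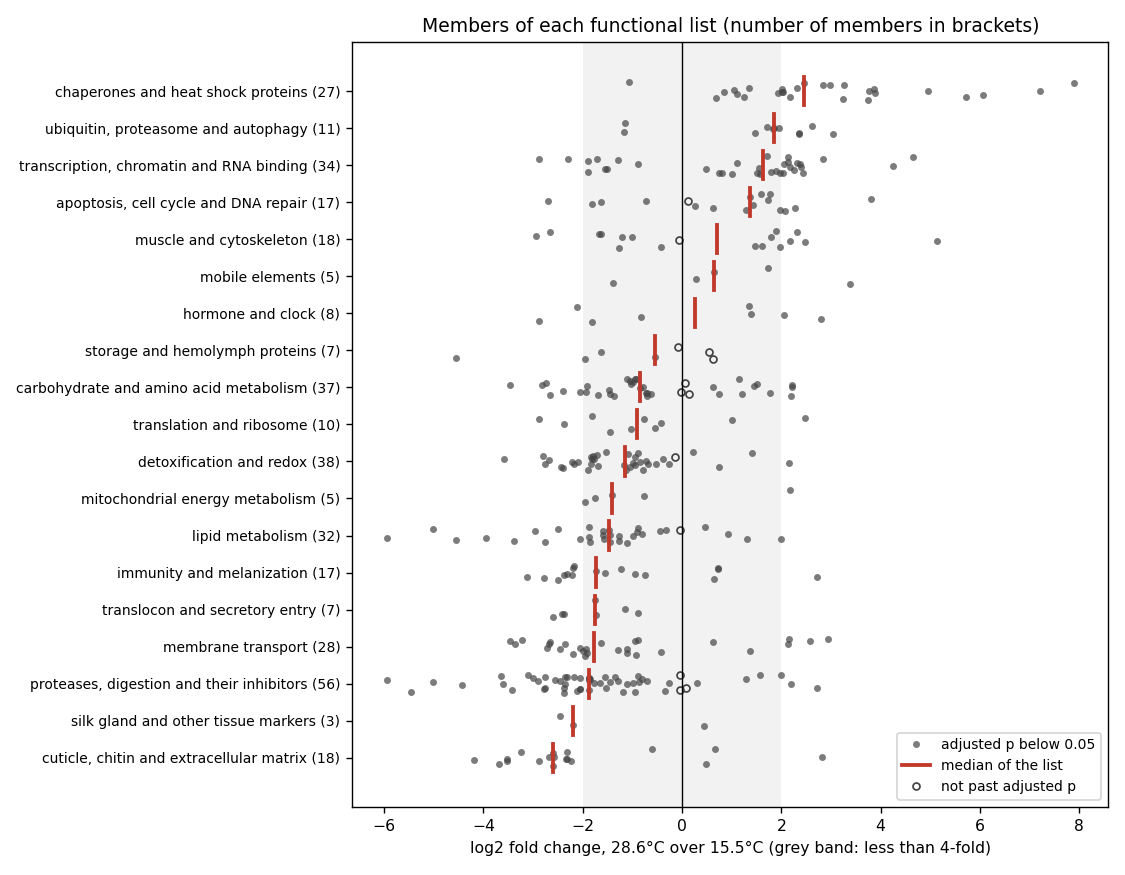
Log2 fold change at 28.6°C over 15.5°C (horizontal axis) of every member in each functional list, with lists ordered by their median, shown as a bar. Filled points passed an adjusted p of 0.05 in edgeR's quasi-likelihood test and open points did not, and the grey band marks changes of less than 4-fold. The chaperones lie furthest to the right with a median of 2.46, and cuticle proteins furthest to the left with a median of -2.59.

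Cuticle genes had the lowest median of all lists, -2.59. Of 18 members in the list of cuticle, chitin and extracellular matrix, 15 fell and 3 rose, and 14 (77.8%) were called lower. Larval cuticle protein 1 (comp61138_c1), a structural protein of soft cuticle, had 175, 185, 136, 142 and 133 CPM at 28.6°C, against 3017, 2769, 2682, 2744 and 2849 CPM at 15.5°C. The groups were far apart, and the log2 fold change was -4.19 ± 0.079 (SE, adjusted p = 7.29e-28 from edgeR). A second member of that name, comp60283_c4, had a log2 fold change of -3.52, Larval cuticle protein 16/17 had -2.88, and 4 endocuticle structural glycoproteins had between -3.25 and -2.23. Summed over the 10 members named as cuticle or endocuticle proteins, the level ran between 364 and 503 CPM at 28.6°C and between 4322 and 4651 CPM at 15.5°C. Collagen alpha-2(IV) chain (comp59991_c0), of the basement membrane, had 217, 229.6, 128, 93.2 and 96.2 CPM at 28.6°C, against 980.1, 829, 939, 986 and 910.5 CPM at 15.5°C. Its first 2 warm libraries were above the other 3, and all 5 were below every cool library. Of the 3 that rose, Peritrophin-48, a chitin-binding protein of the gut lining, had between 36.4 and 48.5 CPM at 28.6°C and between 4.57 and 6.56 CPM at 15.5°C. The others were 1 of the 2 members named Cuticle protein 6 (comp58123_c0, log2 fold change 0.67) and a Probable chitinase 3 (comp64069_c1) whose annotated contigs hold 6.42% of its counts. The thorax contains both epidermis and gut, and in bulk tissue fewer cells of a type and less RNA per cell cannot be told apart.

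Most digestive enzymes were lower at 28.6°C. Of 56 members in the list of proteases, digestion and their inhibitors, 47 fell, 6 rose and 3 did not pass, and 25 (44.6%) were called lower. All 19 members named as trypsins or chymotrypsins, the serine proteases of the insect midgut, fell, with log2 fold changes between -3.64 and -0.34. Their summed level ran between 3009 and 3327 CPM at 28.6°C and between 9763 and 10416 CPM at 15.5°C. Trypsin-7 (comp55070_c1) had 42.3, 50.7, 42.2, 44.5 and 41.6 CPM at 28.6°C, against 474, 468, 473, 498 and 472 CPM at 15.5°C, with no overlap. Trypsin-1 (comp63940_c0) had between 1835 and 2153 CPM at 28.6°C and between 4657 and 5022 CPM at 15.5°C, and shares reads with other subcomponents in all 20 libraries. Zinc carboxypeptidase A 1 (comp50417_c0), which trims peptides from their ends, had 2.44, 1.76, 1.32, 1.25 and 1.82 CPM at 28.6°C, against 45.8, 43.8, 39.7, 39.5 and 37.4 CPM at 15.5°C, a log2 fold change of -4.43 ± 0.17 (SE). Retinoid-inducible serine carboxypeptidase (comp54096_c0) had between 0.711 and 1.29 CPM at 28.6°C and between 45.3 and 55.3 CPM at 15.5°C, a log2 fold change of -5.46 ± 0.13 (SE). Of the 6 that rose, Serine protease persephone (comp59021_c8) had the highest log2 fold change, 2.72. Inactive pancreatic lipase-related protein 1 and Inactive dipeptidyl peptidase 10, both named for the loss of their catalytic activity, rose by 2.001 and 2.19. As a whole the list, which holds the gut markers, summed to between 9541 and 10409 CPM at 28.6°C and between 19892 and 21246 CPM at 15.5°C.

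The lowest log2 fold change of all members was that of a lipase. Of the 32 members in the lipid list, 27 fell, 4 rose and 1 did not pass, and 9 (28.1%, against 23.7% of all members) were called lower, with a median log2 fold change of -1.46. Pancreatic triacylglycerol lipase (comp60703_c1), of the family that cuts fatty acids from stored or eaten fat, had 0.144, 0.117, 0.305, 0.376 and 0.521 CPM at 28.6°C, against 34.9, 30.8, 28.9, 33.8 and 35.4 CPM at 15.5°C. Every 28.6°C library was below 1 CPM, and the log2 fold change was -5.95 ± 0.17 (SE, adjusted p = 1.56e-23 from edgeR). Pancreatic lipase-related protein 2 (comp54657_c0) had between 7.03 and 12.7 CPM at 28.6°C and between 279 and 324 CPM at 15.5°C, a log2 fold change of -5.01 ± 0.11 (SE). Of the 12 members named as lipases, 10 fell, 1 rose and 1 did not pass. Acyl-CoA Delta(11) desaturase, which puts double bonds into fatty acids and in moths makes pheromone, fell by a log2 fold change of -3.94. Epididymal secretory protein E1, a sterol-binding protein of the NPC2 family, had -3.39, and the 2 subcomponents matching Apolipoprotein D, a lipocalin, had -2.96 and -2.51. Long-chain fatty acid transport protein 4 rose, with a mean of 115 ± 5.83 CPM at 28.6°C and 46.1 ± 2.74 CPM at 15.5°C (SD, n = 5 each).

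Among the hemolymph proteins, which the fat body secretes, the lipid carrier changed most. Apolipophorin-3 (comp53956_c0), which loads lipid onto the shuttle particle of insect blood, had 65.6, 70.04, 57.5, 55.7 and 55.9 CPM at 28.6°C, against 1484, 1344, 1451, 1484 and 1413 CPM at 15.5°C. Every warm library was far below every cool one, and the log2 fold change was -4.55 ± 0.075 (SE, adjusted p = 2.17e-29 from edgeR). The storage proteins, hexamers that larvae hoard before pupation, moved less. Basic juvenile hormone-suppressible protein 2 (comp64679_c1) had 6523, 6062, 4369, 3615 and 3535 CPM at 28.6°C, against 15599, 14338, 14813, 14959 and 14903 CPM at 15.5°C. Its direction rests on reads that match several subcomponents, since with reads that map to 1 contig only its log2 fold change turned to 1.34, against -1.63 with estimated counts. Of the others with that name, comp59150_c0 and comp64679_c0 did not pass, with log2 fold changes of -0.09 and 0.54. The reads of comp64679_c1 were split with these, with either or both, in all 20 libraries. The last of that name, comp64905_c0, had a mean of 303 ± 60.3 CPM at 28.6°C and 1175 ± 24.3 CPM at 15.5°C (SD, n = 5 each). Larval serum protein 1 beta chain had a log2 fold change of -0.55. Of the 7 members in the list, 4 fell and 3 did not pass, and their summed level ran between 10719 and 16257 CPM at 28.6°C and between 26692 and 28496 CPM at 15.5°C. Vitellogenin, the yolk protein of insect eggs, was under 2 CPM in all 10 libraries.

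Immune genes were lower in 13 of 17 members and higher in 4, with 8 (47.1%) called lower and a median log2 fold change of -1.74. Lysozyme (comp54048_c0), which digests bacterial walls, had 24.0, 26.2, 30.7, 28.5 and 23.6 CPM at 28.6°C, against 235, 236, 241, 239 and 225 CPM at 15.5°C, a log2 fold change of -3.13 ± 0.092 (SE). A second lysozyme had -1.74, Peptidoglycan-recognition protein 2, a sensor of bacterial walls, had -2.51, and Phenoloxidase subunit A3, which makes melanin, had -2.19. Serine protease persephone, a *Drosophila* enzyme that starts the Toll cascade, matched members that went opposite ways. The member comp64080_c0 had between 165 and 189 CPM at 28.6°C and between 1183 and 1226 CPM at 15.5°C, whereas comp59021_c8 had between 103 and 111 CPM at 28.6°C and between 14.9 and 17.9 CPM at 15.5°C. The counting program split reads between comp64080_c0 and other subcomponents in all 20 libraries. The set linked to it by shared reads, directly or through others, held comp64060_c3 in some, and reads common to these members were not looked for. Beta-1,3-glucan-binding protein, a sensor of fungal walls, rose, with 997, 1129, 973, 1153 and 1045 CPM at 28.6°C, against 719, 707, 667, 679 and 614 CPM at 15.5°C.

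Of 38 members in the list of detoxification and redox, 33 fell, 4 rose and 1 did not pass, with 9 called lower (23.7%, the same share as over all members) and a median log2 fold change of -1.15. Cytochromes P450 oxidize plant toxins and also hormones, and of 17 of them 15 fell, 1 rose and 1 did not pass. Cytochrome P450 9e2 (comp61417_c4) had 9.06, 6.91, 8.13, 7.65 and 6.26 CPM at 28.6°C, against 100.4, 91.6, 89.9, 95.7 and 93.4 CPM at 15.5°C, a log2 fold change of -3.59 ± 0.074 (SE). Cytochrome P450 18a1, which in *Drosophila* breaks down the moulting hormone ecdysone, had between 3.35 and 5.65 CPM at 28.6°C and between 26.8 and 33.2 CPM at 15.5°C. Of 8 glutathione S-transferases 7 fell and 1 rose, mostly by less than 4-fold, with a median log2 fold change of -0.81. The one with the most counts, comp64917_c1, had 5027, 4651, 3699, 3529 and 3329 CPM at 28.6°C, against 7641, 6864, 6743, 6904 and 6592 CPM at 15.5°C. This member shares reads with other subcomponents in all 20 libraries. The subcomponents linked to it by shared reads, directly or through others, include comp60932_c0, also a glutathione S-transferase.

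Genes of central metabolism went both ways. Of 37 members in the list of carbohydrate and amino acid metabolism, 24 (64.9%) fell, 10 (27.0%) rose and 3 did not pass. Over all members 58.0% fell and 39.0% rose. In the list 6 (16.2%) were called lower and 3 (8.11%) called higher, against 23.7% and 17.9% of all members. The median log2 fold change was -0.85, close to the -0.86 of all members. Adenosylhomocysteinase (comp56565_c0), which clears the by-product of methyl transfer, had 163, 162, 119, 112 and 109 CPM at 28.6°C, against 934, 916, 891, 881 and 832 CPM at 15.5°C, a log2 fold change of -2.74 ± 0.092 (SE). Facilitated trehalose transporter Tret1, which moves the blood sugar of insects across membranes, matched 5 members, of which 4 fell and 1 rose, and the lowest, comp63612_c3, had a log2 fold change of -3.47 ± 0.086 (SE). In contrast Enolase-phosphatase E1, of the pathway that recovers methionine, had between 391 and 402 CPM at 28.6°C and between 82.3 and 89.3 CPM at 15.5°C. Argininosuccinate synthase rose by 2.19, and Tyrosine 3-monooxygenase, the first enzyme of dopamine synthesis, by 1.44. Of the 5 members of the mitochondrial list 4 fell and 1 rose, and Probable citrate synthase 2, the enzyme that opens the citric acid cycle, had 16.5, 17.6, 18.3, 14.1 and 15.9 CPM at 28.6°C, against 54.0, 59.4, 56.7, 55.6 and 57.4 CPM at 15.5°C.

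Membrane transporters fell in 22 of 28 members and rose in 6, with 10 (35.7%) called lower and 4 (14.3%) called higher. With reads unique to a contig 10 fell and 3 rose. All 5 members of the organic cation transporter family fell, with log2 fold changes between -3.22 and -0.90. Open rectifier potassium channel protein 1, a leak channel of *Drosophila*, had between 2.16 and 3.13 CPM at 28.6°C and between 17.2 and 18.9 CPM at 15.5°C. The amino acid importer Sodium-dependent nutrient amino acid transporter 1 and ATP-binding cassette sub-family A member 5 rose, by log2 fold changes of 2.58 ± 0.074 and 2.94 ± 0.076 (SE).

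Muscle and cytoskeleton genes moved both ways, 9 of 18 up, 8 down and 1 not past the test. With contigs one by one, and likewise with reads unique to a contig, 5 were up. Muscle-specific protein 20 (comp64509_c1), a calponin-like protein of *Drosophila* muscle, had 8475, 8351, 7749, 9061 and 8434 CPM at 28.6°C, against 1723, 1717, 1657, 1720 and 1644 CPM at 15.5°C, a log2 fold change of 2.31 ± 0.049 (SE). Troponin I (comp63275_c0), part of the calcium switch of the thin filament, had 29.9, 28.3, 27.2, 30.5 and 31.1 CPM at 28.6°C, against 183, 191, 182, 189 and 188 CPM at 15.5°C, a log2 fold change of -2.66 ± 0.058 (SE). A different subcomponent with the name Troponin I holds a reference transcript of the study and is not among the members, so these values describe comp63275_c0 only. Titin rose by 1.46 and Myosin light chain kinase fell by 1.68, where 47.8% of the counts of the titin subcomponent are in annotated contigs. The muscle list summed to between 11223 and 12919 CPM at 28.6°C and between 3429 and 3540 CPM at 15.5°C. At 28.6°C the median sum was 12038 CPM, with medians of 8434 CPM for Muscle-specific protein 20 and 2539 CPM for Protein unc-45 homolog B. At 15.5°C these were 3517, 1717 and 73.2 CPM in the same order. The rise of the sum therefore describes these members and not the rest of the list. Muscle-specific protein 20 and Troponin I were present in all 10 libraries, as the tissue label implies.

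In the list of hormone and clock genes, 4 of 8 members rose and 4 fell. PDF receptor, which receives the peptide that synchronises clock neurons in *Drosophila*, had 29.9, 33.7, 32.3, 33.5 and 39.1 CPM at 28.6°C, against 6.12, 5.05, 4.90, 3.82 and 2.94 CPM at 15.5°C. Nocturnin, a rhythmic phosphatase, rose by a log2 fold change of 2.06. Circadian clock-controlled protein (comp64682_c2) had a mean of 139 ± 15.2 CPM at 28.6°C and 488 ± 18.6 CPM at 15.5°C (SD, n = 5 each). Protein takeout, a carrier linked to feeding in *Drosophila*, matched 1 member that rose by 1.38 and 1 that fell by 0.83. Among 5 mobile elements 4 rose and 1 fell. The rise of PiggyBac transposable element-derived protein 4 (comp65604_c1), 0.28, turned to -0.39 with reads unique to a contig, and Tigger transposable element-derived protein 4 had between 21.5 and 24.1 CPM at 28.6°C and between 1.85 and 2.06 CPM at 15.5°C. The 3 members with names of other tissues were Mesencephalic astrocyte-derived neurotrophic factor homolog, which rose by 0.43, Synaptic vesicle glycoprotein 2B, which had -2.19, and a Neuronal acetylcholine receptor subunit, which had -2.46.

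The intermediate temperatures show where along the range the members stood apart from 15.5°C. These comparisons share the 15.5°C libraries, so the values are given side by side without a test of likeness. Replicates 1 and 4 of 20°C held 44.99% and 77.0% of their counts in the ribosomal-like subcomponent, against at most 1.13% in the other 3. Without them, a choice made after seeing the data, each set of medians below kept its order, and the 20°C medians of Trypsin-1 (comp63940_c0) and Basic juvenile hormone-suppressible protein 2 (comp64679_c1) were 11948 and 154711 CPM. Major heat shock 70 kDa protein Ab had medians of 131, 109, 128 and 6952 CPM at 15.5, 20, 25 and 28.6°C, so it was no higher at 25°C than at 15.5°C. Protein unc-45 homolog B had medians of 73.2, 32.9, 41.4 and 2539 CPM, and Muscle-specific protein 20 had 1717, 918, 585 and 8434 CPM in the same order, both lowest at a temperature between the ends. The 6 T-complex subunits, summed, likewise had medians of 1079, 454, 521 and 2357 CPM. By contrast Lysine-specific demethylase 6A (comp63636_c0) had medians of 20.8, 123, 326 and 387 CPM, most of its rise being present at 25°C. Protein lethal(2)essential for life (comp54376_c0) had medians of 45.2, 237, 704 and 3093 CPM, with a step at each temperature.

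Of the members that fell, Apolipophorin-3 had medians of 1451, 1174, 137 and 57.5 CPM at 15.5, 20, 25 and 28.6°C, and Larval cuticle protein 1 (comp61138_c1) had 2769, 1720, 593 and 142 CPM. Others peaked at 20°C before they fell. Trypsin-1 (comp63940_c0) had medians of 4891, 11619, 3904 and 1957 CPM, and Basic juvenile hormone-suppressible protein 2 (comp64679_c1) had 14903, 147871, 11699 and 4369 CPM. Both share reads with other subcomponents in all 20 libraries. With reads unique to a contig, the fall of comp64679_c1 between 15.5 and 28.6°C turned to a rise. Fibrillarin (comp58229_c1) had 130.4, 41.8, 32.4 and 47.2 CPM, so that its level at 28.6°C was low but not the lowest.

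**Figure D4:**
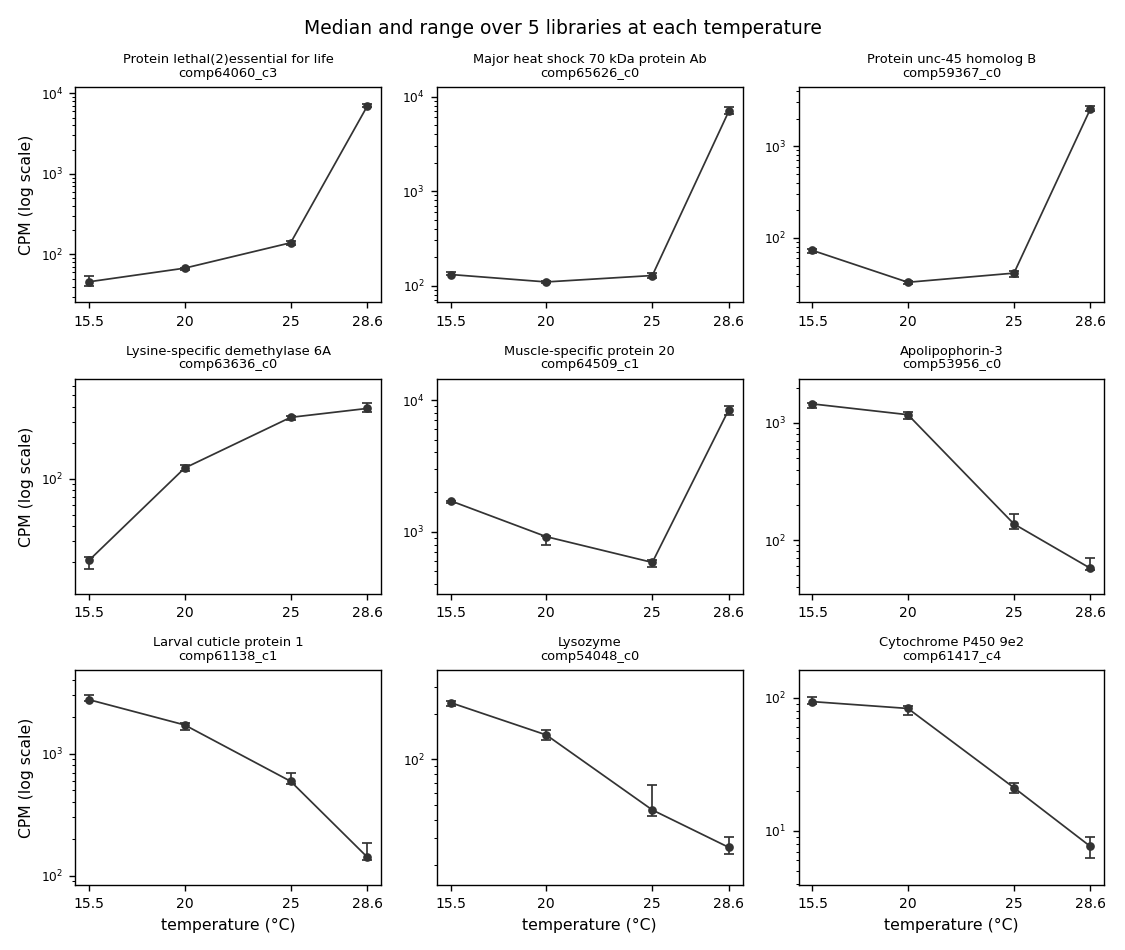
Median CPM over 5 libraries at 15.5, 20, 25 and 28.6°C (points, log axis), with bars from the lowest to the highest library, for 9 of the named members. Major heat shock 70 kDa protein Ab, Protein unc-45 homolog B and Muscle-specific protein 20 are high at 28.6°C only, Lysine-specific demethylase 6A is high at 25°C already, and Apolipophorin-3, Larval cuticle protein 1, Lysozyme and Cytochrome P450 9e2 are lower at each warmer step.

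Of the 15 members that did not pass the test, 3 each were in the lists of proteases, of carbohydrate and amino acid metabolism and of storage proteins, and 3 in no list. As examples, 6-phosphogluconate dehydrogenase, an enzyme of the pentose phosphate pathway, had a mean of 165 ± 11.3 CPM at 28.6°C and 167 ± 4.47 CPM at 15.5°C (SD, n = 5 each), and Cytochrome P450 4C1 had a log2 fold change of -0.14 ± 0.080 (SE). These p-values do not show that the levels were equal. A single member, an RNA-directed RNA polymerase L, had no count in any of the 10 libraries and was tested only because libraries of another temperature hold it. In 70 of the 498 members the annotated contigs hold less than 50% of the counts, so the name describes a minor part of what was measured. In 85 the counting program split reads between the member and other subcomponents in at least 1 library, and in 15 it did so in all 20.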

How the data were processed

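RNA from larval thorax was sequenced as 20 libraries, 5 at each of 4 temperatures, and the 10 libraries of 28.6°C and 15.5°C were compared. The authors trimmed reads with Trim Galore 0.3.0, mapped them with Bowtie2 2.0.6 to their own de novo assembly and deposited, for each contig, the estimated counts and effective counts of eXpress 1.5.1 and the whole-number counts of reads unique to a contig. eXpress shares a read among all contigs it matches, so near-identical genes can exchange counts. The deposited eXpress parameter files were read only for the longest read position. The authors' table of log2 fold changes, made with edgeR 1.2.4, supplied annotations only. Its fold changes were not used.

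Estimated counts were summed over the contigs of a subcomponent and rounded, and comp65386_c0, which holds 10 ribosomal-like contigs, was removed. Subcomponents that reached 2 CPM in 4 or more libraries were fitted with edgeR 4.0.16 (R 4.3.3), using TMM factors, a quasi-likelihood fit of all 20 libraries and a prior count of 2. Adjusted p-values are Benjamini-Hochberg values over all 15220 subcomponents, and the SE is the size of the log2 fold change over the square root of F. The scripts were tested on simulated data. Tables were made with Python 3.11.15, pandas 2.3.3 and numpy 2.4.6.

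A subcomponent took the annotation of its most counted annotated contig, and lists were filled by words in that annotation. Members and lists were chosen with earlier results of these data known. Named were the 10 highest and 10 lowest log2 fold changes among called members whose libraries did not overlap and whose mean reached 10 CPM, in each list the 2 highest and 2 lowest past the test with that mean, and the member of highest mean CPM. Other members are named as examples, chosen after their values were seen. Alternatives were DESeq2 1.42.0, other normalizations, filters, count columns, libraries and blocks. The precision given covers differences between libraries of the same pool only.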

Additional observations from a re-analysis of the deposited data

Results flagged for a closer look

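Of 154 groups of 5 libraries examined for named members, 6 had a library that stood apart from the other 4 by Dixon's criterion, and chance gives about 1 such group in 20. Replicate 5 of 15.5°C was concerned in 3 of them. It had 43.4 CPM of Protein lethal(2)essential for life (comp64489_c0), where the other 15.5°C libraries had between 36.4 and 37.2 CPM. It had 2.18 CPM of Lysine-specific demethylase 6A (comp55606_c0), where the others had between 2.74 and 2.92 CPM, and 31.5 CPM of Nose resistant to fluoxetine protein 6 (comp59425_c0), where the others had between 27.9 and 28.7 CPM. Replicate 4 of 15.5°C had 94.0 CPM of Putative tricarboxylate transport protein (comp62258_c2), against between 84.4 and 86.8 CPM. At 28.6°C, replicate 1 had 1.58 CPM of Phosphatidylethanolamine-binding protein 1 (comp58813_c0), against between 0.782 and 1.004 CPM, and replicate 2 had 391 CPM of Enolase-phosphatase E1 (comp64648_c0), against between 398 and 402 CPM.

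The subcomponent of ribosomal-like contigs, which was left out of the counts compared above, held at least 4.91% of the counts in every 28.6°C library and between 0.513% and 2.45% in the 15.5°C libraries.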

How the results depend on the processing

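The estimated counts gave 519 subcomponents called higher and 389 called lower. A filter of 2 CPM in 10 libraries called 288 higher. Contigs taken one by one called 2026 higher and 1451 lower, effective counts 1128 and 788, and a test against a fold change of 2 called 1410 and 1188. With no low-count filter 654 were called lower, and 9493 and 8626 passed the adjusted p, against 5543 higher and 5412 lower. Within the short-read libraries, which include only 2 of 15.5°C, 498 were called higher and 172 lower. There the filter of 2 CPM in 4 libraries removes any subcomponent that reached 2 CPM only at 15.5°C. The count of 172 therefore cannot be compared with 389. Of the 456 members still tested, 442 passed in both fits with the same sign, and none that passed in the main fit changed sign. Leaving out replicates 1 and 2 of 28.6°C together, an alternative chosen after seeing the data, called 383 higher and 393 lower. Of the 498 members, 483 passed the test, and a change of sign with both fits past the threshold was found only with contigs one by one (8 members) and unique counts (11 members). Basic juvenile hormone-suppressible protein 2 (comp64679_c1) turned to 1.34 with unique counts. PiggyBac transposable element-derived protein 4 (comp65604_c1) turned to -3.68 with contigs and -0.39 with unique counts. PiggyBac also missed the threshold with effective counts and with library size only, and Mesencephalic astrocyte-derived neurotrophic factor homolog with contigs. The cause was not tested. Of 988 counts of members that rose or fell in a list, 24 moved by over 1.5 times under an alternative, 11 of them with unique counts, where 5 members of the transcription list fell in place of 9. Only 410 of the 498 members were tested with unique counts, so a lower count can also come from members no longer tested. With scaling by library size only, 446 were called higher and 466 lower, 4404 and 6611 passed the adjusted p, and the median over all subcomponents was -0.15 on the log2 scale, against 0.01 with TMM.

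The labels link same-numbered libraries of the 2 temperatures by a number only, and do not say whether these were prepared together. The correlations of their deviations were 0.383, 0.070, 0.1205, 0.158 and 0.025 over 6722 subcomponents, and not every library correlated best with its own number. With the replicate number as a block, 520 were called higher and 388 lower, with 5589 and 5476 past the adjusted p.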

Other observations

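Of the members, 153 belong to none of the lists, and 70 of them rose, 80 fell and 3 did not pass. The matches among them to proteins of little-known role included large rises. Putative uncharacterized protein FLJ37770 (comp64970_c2) had 24.3, 21.6, 29.5, 25.2 and 25.2 CPM at 28.6°C, against 0.777, 0.873, 0.467, 0.954 and 0.327 CPM at 15.5°C, and its median at 25°C was already 21.5 CPM. Erythroid differentiation-related factor 1 (comp61922_c0) had between 211 and 225 CPM at 28.6°C and between 10.0 and 12.9 CPM at 15.5°C, with a median of 20.5 CPM at 25°C. 3-oxo-5-beta-steroid 4-dehydrogenase (comp64936_c0), an aldo-keto reductase, had a mean of 17062 ± 558 CPM at 28.6°C and 2129.6 ± 115 CPM at 15.5°C (SD, n = 5 each), and was singled out after its values were seen. Allantoicase (comp60030_c0), an enzyme of purine breakdown, had 2.59, 1.52, 2.13, 2.13 and 1.56 CPM at 28.6°C, against 47.2, 47.3, 44.9, 48.8 and 46.0 CPM at 15.5°C, a log2 fold change of -4.41 ± 0.085 (SE). All 4 members matching Nose resistant to fluoxetine protein 6, a *Caenorhabditis elegans* membrane protein of lipid and yolk transport, fell, with log2 fold changes between -4.31 and -0.76.

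Replicates 1 and 2 of 28.6°C were both above the other 3 libraries in 107 members (21.5%), and in 72 of the 289 that fell (24.9%), against 13.6% of all subcomponents tested. They were both below in 54 members (10.8%). Replicates 4 and 5 of 28.6°C were both above the other 3 in 82 members (16.5%), and in 47 of the 194 that rose (24.2%), against 13.8% of all subcomponents tested. The collagen, adenosylhomocysteinase and storage protein values above show the first split, and those of Samui and T-complex subunit eta the second.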
